A study of Mus musculus with 160 samples.

Results

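The genes described here encode proteins of caveolae, the flask-shaped pits of the plasma membrane. They are 5 of the 23420 genes in the expression table, namely Ptrf, Cav1, Cav2, Ehd2 and Sdpr, and were taken by name. The set was chosen by the measured values themselves, as genes that were high in endothelial cells and low in the blood cells derived from them, so their levels between the groups are given as a description and no test was run. Of the 5 genes, 4 were above 1 TPM (a transcript level scaled for transcript length and to a common total in each cell) in more than 30 cells, and Sdpr was listed at 0 in every cell and so showed no such fall.

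The 160 libraries were single sorted mouse cells (strain C57BL/6) in 4 groups. All came from pluripotent stem cells in which Runx1 and Hoxa9 were expressed from a doxycycline-inducible cassette, and the labels do not say which cell came from which stem cell line. The 65 induced hemogenic endothelial cells (iHECs) were sorted as CD31+CD41lowCD45-c-kit+CD201high. The induced hematopoietic progenitor cells (iHPCs) had matured with doxycycline on OP9-DL1, a stromal feeder line displaying a Notch ligand, and numbered 21 at day 14, 18 at day 17 and 56 at day 21, which the labels give as days 3, 6 and 10 of maturation. Doxycycline had also been given before the iHECs were sorted, whereas the feeder was used only after that sort. The sort gate was CD45+Lin- at day 14 and day 17 and, at day 21, Ter119-CD45+c-kit+CD127+. Day, gate and feeder culture therefore cannot be told apart in any comparison with iHECs, nor can day and gate in one with day 21. Day 14 and day 17 shared a gate. No animal, culture or experiment is named for any cell, so a group counts as 1 sample in which cells do not act as replicates, and differences between groups come without any replicate check.

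Caveolae are abundant in endothelium, where they take part in transport across the cell, in lipid handling and in buffering of membrane tension. Caveolins form the membrane-embedded part of the coat, cavins assemble on it from the cytoplasm, and Ehd proteins gather at the neck of the pit and hold it at the surface. Cav1 and the cavin encoded by Ptrf are both needed for caveolae to form, Cav2 joins Cav1 in hetero-oligomers, and most blood cells have few or no caveolae.

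The neighboring caveolin genes are shown first, because they lie 17219 bases apart and were the members most alike over the iHECs. On GRCm38, Cav2 lies at chr6:17281185-17289115 and Cav1 at chr6:17306335-17341452, both on the plus strand. The 250 bases before the annotated start (RefSeq, GRCm38.p6, plus strand, 5′ to 3′) are at chr6:17280935-17281184 for Cav2 and chr6:17306085-17306334 for Cav1, with any match to the 4 motifs searched in capitals.
Cav2: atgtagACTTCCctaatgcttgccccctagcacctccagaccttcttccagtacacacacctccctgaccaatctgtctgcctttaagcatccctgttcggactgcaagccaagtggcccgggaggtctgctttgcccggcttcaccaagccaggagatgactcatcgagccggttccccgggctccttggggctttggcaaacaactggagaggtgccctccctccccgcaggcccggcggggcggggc
Cav1: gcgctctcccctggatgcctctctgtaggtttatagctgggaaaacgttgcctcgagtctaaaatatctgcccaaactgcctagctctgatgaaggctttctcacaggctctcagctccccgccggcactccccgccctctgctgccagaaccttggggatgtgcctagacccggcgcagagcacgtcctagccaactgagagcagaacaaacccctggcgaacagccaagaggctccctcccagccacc
The motifs, searched on both strands, were TGTGGT for RUNX factors, GGAAGT for ETS factors, AGATAA for GATA factors and ACAATG for SOX factors. The Cav2 window held 1 match, to the ETS motif on the reverse strand, and the Cav1 window held 0. Of 32851 such windows, 14% held the RUNX motif, 19.7% the ETS motif, 9.99% the GATA motif and 10.7% the SOX motif. The windows of Ptrf, Ehd2 and Sdpr, and a second annotated Cav1 start, held 0 matches. The GC content was 62% in the Cav2 window and 59.6% in the Cav1 window, against a median of 52.4% over all windows. A match is a description of letters, and no match says nothing of a factor.

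Ptrf (annotated as Cavin1) lies on the minus strand at chr11:100956733-100970887, Ehd2 on the minus strand at chr7:15946958-15967567 and Sdpr (annotated as Cavin2) on the plus strand at chr1:51289126-51302960. The antisense gene Gm15581 overlaps both caveolin genes. Whether reads were counted by strand is not given in the sources used here, so reads of Gm15581 could not be told apart from those of Cav1 and Cav2. The antisense gene over Sdpr, 9330175M20Rik, was at 0 TPM in every cell.

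Several libraries need to be named before the values. In the iHECs a median of 4926 genes (range 3309 to 7533) were above 1 TPM, against medians of 8200, 8101 and 6696 in day-14, day-17 and day-21 iHPCs. The 12 endothelial markers summed to a median of 3939 TPM in iHECs and to medians of 211, 129 and 53.6 TPM in the iHPC groups in order of day, while the 8 blood markers summed to a median of 109 TPM in iHECs and of 4746, 6053 and 5080 TPM in iHPCs. Cdh5, which encodes the endothelial cadherin, was at 0 in every iHPC. Against their label, 3 iHPCs had blood marker sums of 103, 39.1 and 14.5 TPM, where the lowest sum of any other iHPC was 1415 TPM. The day-14 iHPCs 4 and 17 among these had 972 and 698 TPM of the pluripotency gene Pou5f1, against at most 4.58 TPM in the other day-14 cells, and day-17 iHPC 9 had 284 TPM of Sox9, a transcription factor of epithelial and skeletal progenitors, against at most 7.34 TPM in the other day-17 cells. On the other side, 3 iHECs had blood marker sums above that 1415 TPM: iHEC 64 at 3284, iHEC 2 at 2269 and iHEC 31 at 2258 TPM. Their endothelial sums were 755, 428 and 127 TPM, the last the lowest of all iHECs. In these 3 cells Ptrf was at 224, 75 and 187 TPM, Cav1 at 3.33, 0.759 and 1.31 TPM, Cav2 at 0.706, 1.78 and 0.617 TPM and Ehd2 at 0. Without them the iHEC shares above 1 TPM were 72.6% for Cav1, 90.3% for Cav2 and 58.1% for Ehd2, and the mean difference of the 4 detected members between iHECs and day 14 was -5.49 in place of -5.33 on the log2(TPM + 1) scale.

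Some libraries were also too alike to count as independent cells. Across 9674 genes, 6 pairs of libraries of the same group correlated above 0.95 on the log2(TPM + 1) scale. In iHECs these were cells 5 and 6, 15 and 16, 24 and 25, and 32 and 33, with r from 0.963 to 0.991, where the next highest pair was at 0.699. At day 17, cells 10 and 11 correlated at 0.985 and the next pair at 0.819. At day 14, cells 8 and 9 correlated at 0.956, but without such a gap, since the next pair, cells 14 and 21, was at 0.935. No source says why. With each pair counted once, the share of cells above 1 TPM of each of the 4 detected members stayed inside the interval of its full share in every group. In iHECs 24 and 25, Cav1 was at 716 and 778 TPM and Cav2 at 753 and 736 TPM. In iHECs 5 and 6, Cav2 was at 183 and 202 TPM, while Cav1 was at 0.512 and 3.39 TPM and fell on opposite sides of 1 TPM.

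The caveolae genes were high in iHECs and nearly gone by day 14. Ptrf exceeded 1 TPM in 65 of the 65 iHECs but only in 3 of the 21 day-14 cells, Cav1 in 47 and then in 0, Cav2 in 57 and then in 6, and Ehd2 in 36 and then in 1. Cav2 was the most frequent of them in iHPCs of day 14 and day 17, and 2 of 56 day-21 iHPCs had it.

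Ptrf, the cavin needed for the coat, was the most uniform member. In iHECs it ranged from 46.8 through a median of 389 to 1293 TPM, with a mean of 8.53 ± 1.03 (SD between cells) on the log2(TPM + 1) scale. The iHPCs reached at most 3.12 TPM at day 14, 1.56 TPM at day 17 and 2.88 TPM at day 21, with a median of 0 at each day. The lowest iHEC was thus above the highest of the 95 iHPCs, and the groups did not overlap. The same held for 4 of the 9674 genes compared (0.0413%), and since the contrast chose the members, nothing is read from that share. In shares, 100% of iHECs (exact Clopper-Pearson 95% interval 94.5 to 100%) were above 1 TPM, then 14.3% (3.05 to 36.3%), 5.56% (0.141 to 27.3%) and 1.79% (0.0452 to 9.55%) of iHPCs. Of the 3 day-14 cells, 1 was cell 17, the library with little blood marker signal, and without the 3 such iHPCs the day-14 share was 10.5%.

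Cav1, the main caveolin of endothelium, was split within the iHECs. It ranged from 0 through a median of 71.6 to 1743 TPM, with 33 cells above 50 TPM, 1 between 10 and 50 TPM, 13 between 1 and 10 TPM, 11 above 0 and up to 1 TPM and 7 at 0. Its mean in iHECs was 4.92 ± 3.97 on the log2(TPM + 1) scale, the widest spread of the members. Every day-14 and every day-21 iHPC was listed at 0, and 1 day-17 iHPC had 15.6 TPM. Counts of 0 of 21 and 0 of 56 cells allow shares of up to 14.3% and 5.36%. The groups overlapped in the low iHECs, and 33 of 65 iHECs were above the highest iHPC.

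Cav2, the partner of Cav1, was present in more iHECs and was kept by more iHPCs. Here and below, a gene kept by an iHPC was detected in it, and no more is meant. Each cell was read once, so carry-over from an iHEC was not observed. In iHECs it ranged from 0 through a median of 139 to 1037 TPM, with 48 cells above 50 TPM and 2 at 0, and a mean of 6.24 ± 2.96 on the log2(TPM + 1) scale. The highest iHPCs were at 17.1 TPM at day 14, 32.2 TPM at day 17 and 15.2 TPM at day 21, and the median was 0 at each day. In shares, 87.7% of iHECs (77.2 to 94.5%) were above 1 TPM, then 28.6% (11.3 to 52.2%), 33.3% (13.3 to 59%) and 3.57% (0.435 to 12.3%) of iHPCs. With near-identical libraries counted once, the day-17 share was 29.4%. The groups overlapped, with 49 of 65 iHECs above the highest iHPC.

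Ehd2, the ATPase of the caveolar neck, was the lowest of the 4 in iHECs. It ranged from 0 through a median of 5.06 to 226 TPM, with 20 cells above 50 TPM and 21 at 0, and a mean of 3.08 ± 2.91 on the log2(TPM + 1) scale. Above 1 TPM were 55.4% of iHECs (42.5 to 67.7%), 1 day-14 iHPC at 4.76 TPM, 0 of 18 day-17 iHPCs, which allows up to 16.7%, and 1 day-21 iHPC at 15.5 TPM. The groups overlapped at the low end, and 30 of 65 iHECs were above the highest iHPC. Sdpr, the cavin 2 gene, was at 0 in each of the 160 cells, as were 7432 of the 23420 rows, so its loss could not be measured here.

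**Figure D1:**
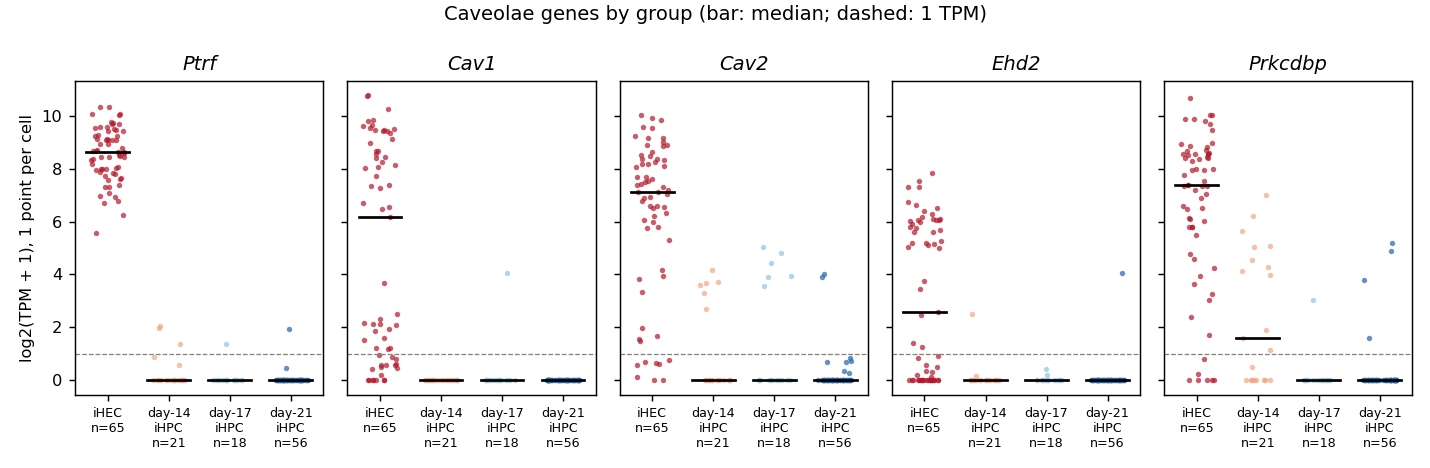
Levels of Ptrf, Cav1, Cav2, Ehd2 and the cavin 3 gene Prkcdbp in each cell, as log2(TPM + 1), by group (n = 65 iHECs, then n = 21, 18 and 56 iHPCs in order of day), with black bars at the group medians and a dashed line at 1 TPM. Ptrf does not overlap between iHECs and iHPCs, as was so of 0.0413% of the genes compared, Cav1 splits the iHECs into high and low cells, and Cav2 has points between 5.43 and 32.2 TPM in 14 of the 95 iHPCs.

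In group means on the log2(TPM + 1) scale, day-14 iHPCs differed from iHECs by -8.20 for Ptrf, -5.23 for Cav2, -4.92 for Cav1 and -2.95 for Ehd2. The median of the 9674 genes compared moved by 0.93 in the other direction, and relative to it the differences were -9.13, -6.16, -5.85 and -3.88. All 4 were lower by more than 1, a fold of 2, as were 11.5% of the genes compared. Among the 4440 genes above 1 TPM in most iHECs, 7.32% were so in fewer than 50% of day-14 iHPCs, and these 4 were among them. Both shares are the background of a contrast that chose the members, and nothing is read from them. From iHECs to day 17 and to day 21 the 4 were again lower by more than 1, as were 10.3% and 14.5% of the genes compared.

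Little of the iHEC level was left to lose after day 14. From day 14 to day 17, 0 of the 4 members moved by more than 1 (3.89% of genes were lower and 15.5% higher), and Cav2 differed by 0.42, or by 0.23 with near-identical libraries counted once. From day 17 to day 21, 1 of the 4, Cav2, was lower by more than 1, with a difference of -1.22. That step lowered 38.5% of the genes compared and raised 2.33%, and its median difference was -0.74, so relative to the median Cav2 differed by -0.48. With a pseudocount of 10 the Cav2 difference was -0.45, and 0 of the 4 were lower by more than 1. Ptrf, Cav1 and Ehd2 differed by -0.03, -0.23 and 0.04 in that step.

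An order of loss rests on few cells. At day 14 the mean TPM left, as a percentage of the iHEC mean, was 0% for Cav1, 0.0930% for Ptrf, 0.658% for Ehd2 and 1.39% for Cav2. By share of cells the order was Cav1 (0 of 21), Ehd2 (1 of 21), Ptrf (3 of 21) and Cav2 (6 of 21), so Ptrf and Ehd2 changed places between the measures. The Ehd2 value rested on day-14 iHPC 5, and without that cell 0.0191% of Ehd2 was left, below the 0.0976% of Ptrf. The intervals of the shares of neighbors in this order overlapped, and the limit of 14.3% for Cav1 lay above the lower bound of 11.3% for Cav2. Cav2 was last by both measures at day 14 and at day 17, when 2.90% of its iHEC mean was left, against 0.0189% for Ptrf, 0.0764% for Ehd2 and 0.311% for Cav1. At day 21 Cav2 was at 0.255% and Ehd2, from 1 cell, at 0.783%.

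**Figure D2:**
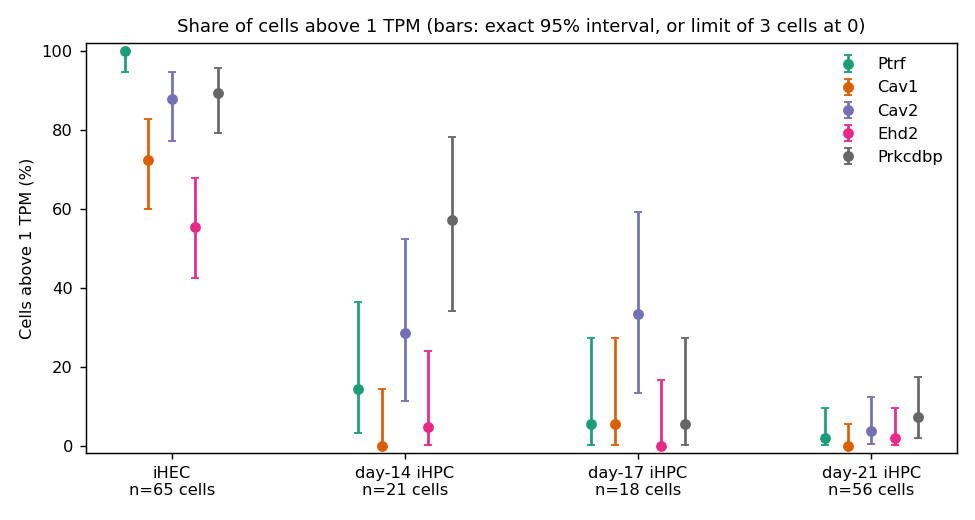
Percentage of cells above 1 TPM in each group for the 4 caveolae genes and Prkcdbp, with bars for exact 95% intervals or, at 0 cells, for the limit of 3 cells of the total, both of counting error only. At day 14 Prkcdbp stands at 57.1%, Cav2 at 28.6% and the other 3 genes at or below 14.3%, with overlapping intervals between neighbors.

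Prkcdbp, which encodes cavin 3 and was not among the 5 genes, was kept by more cells at day 14. In iHECs it ranged from 0 through a median of 164 to 1635 TPM, and 58 of 65 cells were above 1 TPM. At day 14, 12 of 21 cells (57.1%, 34 to 78.2%) were above 1 TPM, with a median of 2.02 and a highest value of 128 TPM. At day 17 this was 1 of 18 cells, and at day 21 it was 4 of 56. Its mean fell by 4.09 to day 14 and by a further 2.26 from day 14 to day 17, a step in which 3.89% of genes were lower by more than 1. The day-17 cell was number 9, at 7.28 TPM, which is the library with high Sox9, and without it 0 of 17 cells were above 1 TPM. Of the 12 day-14 cells, 6 were among the 8 that kept a caveolae gene.

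Within the iHECs the members did not appear together in every cell. All 4 detected members were above 1 TPM in 26 of 65 iHECs (exact 95% interval of the share 28 to 52.9%), 3 members in 26, 2 in 10 and 1 in 3. No cell could have all 5, since Sdpr was listed at 0 in every cell. All 4 were found in 23 of 61 iHECs with near-identical libraries counted once, and in 26 of 62 without the 3 iHECs high in blood markers. The most frequent incomplete set was Ptrf with both caveolins and no Ehd2, in 17 cells, followed by Ptrf with Cav2 alone in 7 and Ptrf with Cav2 and Ehd2 in 7. Ptrf with Cav1 but without Cav2 was seen in 4 cells, 2 of them with Ehd2, and Ptrf with Ehd2 alone in 1. The iHECs 8, 44 and 59 had Ptrf as their only member, at 156, 124 and 201 TPM. These 3 cells had 8, 9 and 10 of the 12 endothelial markers above 1 TPM, with endothelial sums of 1652, 8014 and 1525 TPM, the second being the highest of all iHECs. The number of genes detected moved with these counts: the median was 5568 genes in the 26 cells with 4 members, 4751 in those with 3, 4591 in those with 2 and 3749 in those with 1, and its part in the counts was not tested. In the 48 iHECs with 4000 or more genes, 24 had all 4.

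**Figure D3:**
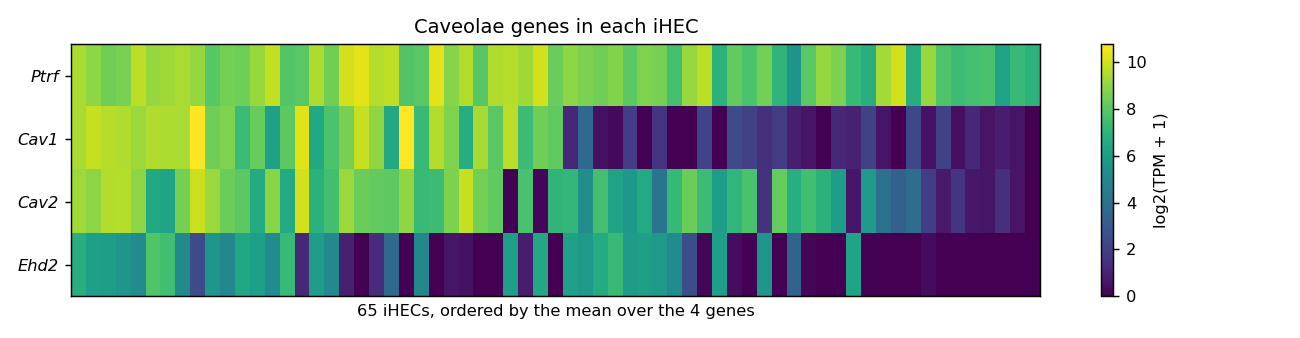
Level of Ptrf, Cav1, Cav2 and Ehd2, as log2(TPM + 1), in each of the 65 iHECs, ordered from left to right by the mean over the 4 genes. Ptrf is high throughout, Cav1 switches between high and low cells, and Ehd2 is at 0 in 21 cells spread along the order.

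Of the pairs of members, the caveolins were most alike over the 65 iHECs, with a Spearman rho of 0.57, or 0.58 over 61 cells with near-identical libraries counted once. Ptrf correlated with Cav1 at 0.38, with Cav2 at 0.31 and with Ehd2 at 0.21, and Ehd2 with Cav1 at 0.18 and with Cav2 at 0.08. These are descriptions over cells of a single group that share their processing, and the number of genes per cell correlated with Ptrf at -0.30 and with Ehd2 at 0.34, against 0.00 for Cav1 and 0.03 for Cav2. The mean of the 4 members correlated with the mean of the 12 endothelial markers at 0.64, or 0.60 without the 3 iHECs high in blood markers, with that of the 8 blood markers at -0.21 and with the number of genes at 0.16.

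The genes most like the mean of the members over the 65 iHECs, among 9503 that varied there, began with Igfbp3, a secreted binding protein of insulin-like growth factors (rho 0.67), Flt1, a receptor for vascular endothelial growth factor (0.63), Pecam1, the CD31 on which iHECs were sorted (0.62), and Anxa5, a phospholipid-binding annexin (0.62). Next came Gpihbp1, which holds lipoprotein lipase on capillary endothelium (0.58), Ndfip1, an adaptor of ubiquitin ligases (0.58), S1pr1, a receptor for sphingosine 1-phosphate (0.58), and Col4a2, a basement membrane collagen (0.56). With near-identical libraries counted once, Gpihbp1 ranked 11 (0.54) and Ndfip1 ranked 9 (0.56). Among the lowest were Ifitm2, an interferon-induced membrane protein gene (-0.56), and Ndufb8, a subunit of respiratory complex I (-0.55). Prkcdbp was at 0.29 and ranked 470. In iHPCs these genes differed from each other: Anxa5 and Ndfip1 were above 1 TPM in all 21 day-14 cells and Pecam1 in 17, while Igfbp3 was in 1 and Gpihbp1 in 0.

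Of the 95 iHPCs, 19 kept at least 1 caveolae gene above 1 TPM: 8 of 21 at day 14 (38.1%, 18.1 to 61.6%), 7 of 18 at day 17 (38.9%, 17.3 to 64.3%) and 4 of 56 at day 21 (7.14%, 1.98 to 17.3%). Without the 3 iHPCs low in blood markers the day-14 count was 7 of 19, and with near-identical libraries counted once the day-17 count was 6 of 17. Cav2 accounted for 14 of the 19 cells. No iHPC kept 3 members, and 3 kept 2. Day-14 iHPC 5 had Cav2 at 11 and Ehd2 at 4.76 TPM, day-14 iHPC 14 had Ptrf at 1.56 and Cav2 at 5.43 TPM, and day-17 iHPC 3 had Ptrf at 1.56 and Cav2 at 20.5 TPM. No iHPC kept both caveolins or Ptrf together with Cav1. The highest value of any member in an iHPC was 32.2 TPM of Cav2, in day-17 iHPC 6, below the iHEC median of 139 TPM. Not every value lay below the iHEC median of its gene. Ehd2 was at 15.5 TPM in day-21 iHPC 30, above its iHEC median of 5.06 TPM.

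**Figure D4:**
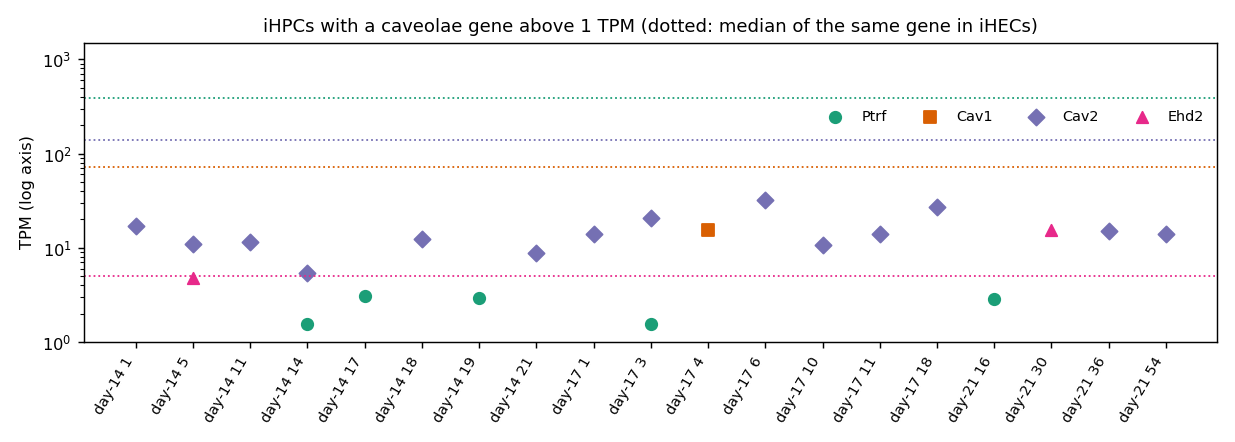
TPM, on a log axis, of each caveolae gene above 1 TPM in the 19 iHPCs that kept any, with dotted lines at the median of the same gene in 65 iHECs. All Cav2 points lie between 5.43 and 32.2 TPM, below the dotted line at 139 TPM, and all Ptrf points at or below 3.12 TPM, below the line at 389 TPM. The Ehd2 point of day-21 iHPC 30, at 15.5 TPM, lies above its line at 5.06 TPM.

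Endothelial transcripts were compared between the keeping cells and the rest of their group, as a description. At day 14 the 12 endothelial markers of the 8 keeping cells summed to a median of 296 TPM (range 108 to 514), against 182 TPM (94.6 to 441) in the other 13 cells, and the ranges overlapped. Day-14 iHPC 14 had the highest sum of its group, 514 TPM, and iHPC 14 and iHPC 21 were alike in having Emcn, an endothelial sialomucin, and Tie1, an endothelial receptor kinase, among 6 markers above 1 TPM. These cells form the pair that correlated at 0.935. Both also had all 8 blood markers above 1 TPM, with sums of 4096 and 4746 TPM, and 4 of the 8 megakaryocyte markers. At day 17 the endothelial sums had medians of 126 TPM in the 7 keeping cells and 139 TPM in the other 11, and at day 21 of 54.3 TPM in 4 cells and 53.1 TPM in 52. Of the 12 markers, Cdh5, Tek and Sox18 were at 0 in every day-14 cell. Sox7 and Vwf were above 1 TPM in 0 of the 21 day-14 cells, Emcn in 2 and Tie1 in 5. Later, 5 of the 12 were at 0 in every day-17 cell and 7 in every day-21 cell, Emcn, Tie1 and Cdh5 among them. Others were kept by many cells: Pecam1 exceeded 1 TPM in 16 day-17 and 46 day-21 cells, Egfl7, a secreted endothelial protein gene, in 18 and 36, and Eng, a co-receptor for transforming growth factor beta, in 9 and 9. Some keeping cells were high in markers of other lineages. The 8 mast cell or basophil markers had a day-21 median of 1599 TPM (range 83.8 to 101649). They summed to 37995, 45153 and 59076 TPM in day-21 keeping cells 16, 30 and 54, and to 225 TPM in cell 36. Day-21 cell 52, with no member above 1 TPM, had a sum of 55339 TPM, so high sums were not limited to keeping cells. The 8 neutrophil or monocyte markers had a day-17 median of 55.3 TPM (range 0.983 to 8613) and summed to 8613 and 7733 TPM in keeping cells 1 and 18. In the other day-17 keeping cells they summed to 20.5 to 196 TPM. How many of the other cells had such mast cell or neutrophil sums was not counted, so neither is read as a trait of keeping cells.

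Sums of the markers for feeder-like stroma and the number of genes had higher medians in the keeping cells, with overlapping ranges. The 12 stromal markers summed to 0.598 to 36.6 TPM in keeping day-14 cells and 0 to 123 TPM in the others, to 0 to 96.3 TPM and 16.8 to 406 TPM at day 17, and to 21.9 to 65 TPM and 0 to 85.3 TPM at day 21. The medians were 5.52 against 2.43 TPM, 76.4 against 62.8 TPM and 41.7 against 11.8 TPM. Of the 12 markers, 6, 5 and 6 were at 0 in every cell of the groups in order of day, the collagen gene Col3a1 at each day. Pdgfrb, a receptor of mural and stromal cells, exceeded 1 TPM in 10, 16 and 44 iHPCs in order of day, and Tagln, a smooth muscle and fibroblast gene, in 3, 10 and 0. Of the keeping cells, Pdgfrb was above 1 TPM in 5, 5 and 4, and Tagln in 0, 4 and 0. Dcn (14.4 TPM) and Postn (6.31 TPM) were each above 1 TPM in 1 day-14 cell, the keeping cells 17 and 19. Thy1 exceeded 1 TPM in 9 day-21 cells, of which 1 was a keeping cell. No keeping cell had Col1a1, Col1a2, Col3a1, Pdgfra, Lum, Acta2 or Adipoq above 1 TPM. These markers were rare in all iHPCs, above 1 TPM in at most 2 cells of any group, so their absence says little. Keeping cells had medians of 8623, 8543 and 6834 genes above 1 TPM in the order of day, against 7849, 8046 and 6696 in the others. The part of either in the keeping of members was not tested.

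Other genes of the pathway were read by list. Of 12 genes for accessory proteins, 6 passed the filter of more than 30 cells above 1 TPM. From iHECs to day 14, 1 of the 6, Prkcdbp, was lower by more than 1 and 3 were higher, with a median difference of 0.97 against 0.93 over all genes, of which 11.5% were lower and 48% higher. The membrane-bending protein gene Pacsin2 had means of 3.77, 5.18, 6.01 and 3.96 on the log2(TPM + 1) scale in iHECs and in iHPCs of day 14, day 17 and day 21. Ehd4, a relative of Ehd2, had means of 4.89, 4.97, 5.65 and 2.61, and Ehd1 of 2.61, 3.96, 3.32 and 2.25. Flna, which encodes an actin crosslinker that binds caveolae to stress fibers, had means of 3.49, 4.07, 5.49 and 4.26. From day 17 to day 21, 5 of the 6 were lower by more than 1, where 38.5% of all genes were. Cav3 and Murc, the muscle members of the caveolin and cavin families, did not pass the filter, and Cav3 was at 0 in every cell.

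Of 14 genes for proteins that caveolae hold or that bind Cav1 protein, 9 passed the filter, and from iHECs to day 14 the mean of 5 was lower and of 1 higher by more than 1, with a median difference of -1.96 against 0.93 over all genes, of which 11.5% were lower and 48% higher. The 5 lower genes passed mainly through iHECs. They were above 1 TPM in 29 to 63 iHECs and in at most 5 cells of any iHPC group. The genes that did not pass differed by -0.82 to 0.02. The list median therefore depends on the filter, and nothing is read from it. Plvap, which forms the diaphragm of endothelial caveolae, had a mean of 8.03 ± 2.26 in iHECs and of 0.69, 0.91 and 0.15 in the iHPC groups, and 5, 5 and 3 iHPCs had it above 1 TPM. Gpihbp1 was above 1 TPM in 63 of 65 iHECs, with a median of 554 TPM, and listed at 0 in all 95 iHPCs. Cd59a, which encodes a lipid-anchored complement inhibitor, was above 1 TPM in 62 iHECs with a median of 152 TPM, and in 0, 4 and 3 iHPCs. Scarb1, the receptor for high-density lipoprotein, was higher than in iHECs at day 14 and day 17 but not at day 21, with means of 4.47, 6.32, 6.69 and 3.85. Tgfbr1, a receptor for transforming growth factor beta, had means of 1.24, 2.02, 2.98 and 3.55. From day 14 to day 17, 0 of these 9 moved by more than 1, where 3.89% of all genes were lower and 15.5% higher, and from day 17 to day 21 1 was lower, where 38.5% were.

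Membrane rafts and clathrin coats can form without caveolae. The raft list was not limited to the plasma membrane, and it held mitochondrial and endoplasmic reticulum genes. Of 10 raft genes 7 passed the filter, and from iHECs to day 14 0 were lower and 2 higher by more than 1 (11.5% and 48% of all genes), with a median difference of 0.73 against 0.93. Flot1, a flotillin, had means of 5.46, 5.83, 6.45 and 6.76, and Stoml2, a mitochondrial relative of stomatin, of 7.22, 8.02, 8.38 and 7.74. Lat2, an adaptor of immune receptor signaling, rose from 0.05 in iHECs through 2.36 and 5.66 to 7.66 at day 21, and Erlin1, an endoplasmic reticulum protein gene, had means of 1.51, 3.88, 4.33 and 2.08. From day 14 to day 17, 0 of the 7 were lower and 2 higher (3.89% and 15.5% of all genes), and from day 17 to day 21 3 were lower and 1 higher (38.5% and 2.33%).

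Of 16 clathrin coat and adaptor genes 15 passed the filter, and from iHECs to day 14 6 were lower and 2 higher by more than 1 (11.5% and 48% of all genes), with a median difference of 0.36 against 0.93. The 6 were the pit nucleator gene Fcho2 (-2.04), the adaptor subunit genes Ap2s1 (-1.83) and Ap2a2 (-1.31), the heavy chain gene Cltc (-1.48), the assembly protein gene Picalm (-1.45) and the cargo adaptor gene Dab2 (-1.18), named after their values were seen. The light chain gene Clta had means of 7.48, 8.41, 8.69 and 8.15, and the adaptor subunit gene Ap2m1 of 8.49, 8.18, 8.28 and 8.10. Ap2a1, another subunit of that adaptor, had means of 1.3, 3.78, 4.14 and 2.63. Fcho1, which nucleates clathrin pits, exceeded 1 TPM in no iHEC, in 4 of the 21 day-14 cells, in 16 of the 18 day-17 cells and in 43 of the 56 day-21 cells. From day 14 to day 17, 0 of the 15 were lower and 3 higher (3.89% and 15.5% of all genes), and from day 17 to day 21 5 were lower and 0 higher (38.5% and 2.33%).

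**Figure D5:**
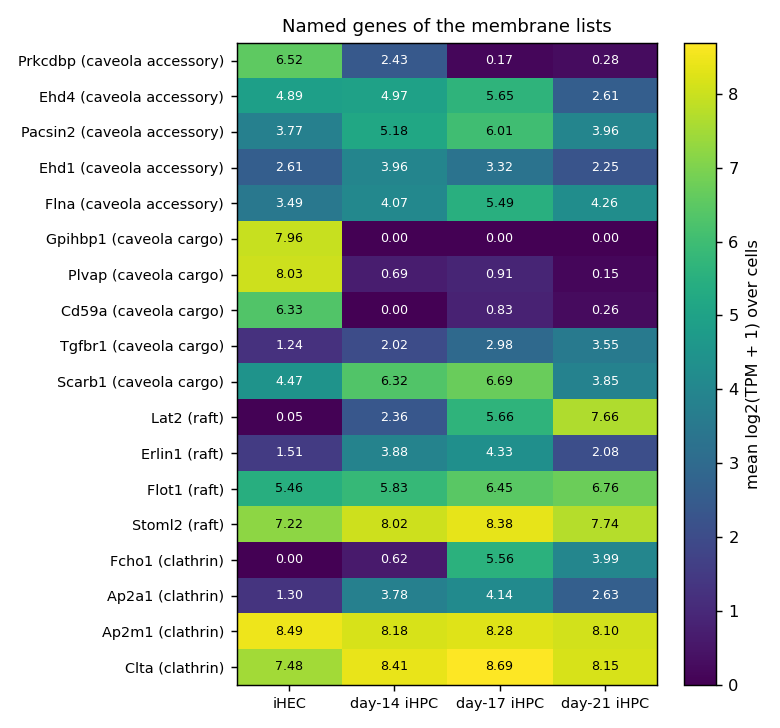
Group means of log2(TPM + 1) of the named accessory, cargo, raft and clathrin genes by group (n = 65 iHECs, then n = 21, 18 and 56 iHPCs in order of day), from dark (0) to light (the highest mean). The cargo genes Gpihbp1, Plvap and Cd59a go from means of 7.96, 8.03 and 6.33 in iHECs to at most 0, 0.91 and 0.83 in any iHPC group, while Flot1, Ap2m1 and Clta stay above 5 in every group.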

How the data were processed

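Single cells were sorted, and per the labels the polyadenylated RNA of each was amplified (Discover-sc WTA Kit V2) before library preparation (TruePrep DNA Library Prep Kit V2). According to the submitters' processing notes, the tools were bcl2fastq, HISAT2 2.1.0, SAMtools 0.1.19 and StringTie 1.3.4, and the build was mm10, the assembly that GRCm38 names. The authors deposited TPM values of 23420 genes in 160 cells in a single table, whose columns sum to between 988686 and 999108, and 0 columns were left unused. TPM holds no counts, so depth is unknown, a rise of some genes lowers the others, and an exact 0 may be a failed estimate. Use of molecular tags is not given in the sources used here.

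Cells were grouped by their titles. A gene was called detected above 1 TPM. Means, SDs and differences were taken on log2(TPM + 1), a pseudocount of 1, which understates changes of low genes. The comparisons used 9674 genes, those detected in more than 30 cells, and a difference above 1 (a fold of 2) was counted. Shares have exact Clopper-Pearson 95% intervals, and a count of 0 allows up to 3 cells of the total. Counting error is all that either covers. Python 3.11.15, pandas 2.3.3, NumPy 2.4.6 and SciPy 1.17.1 were used, and the ranking and counting steps were tested on simulated data.

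The 5 genes, the 4 lists of related genes, the marker lists and the rules were chosen with earlier results of these data known. Named were the 5 genes and the 8 most and 3 least alike genes over iHECs, of which 1 is not reported here. By its largest change between consecutive groups, a gene of a list is named if it was among the 3 largest of the whole list and had a group mean of 3 or more, or among the 2 smallest of the genes with such a mean. Markers are named where a keeping cell is described. The named markers missing there and the mast cell and neutrophil sums were picked after their values were seen. Pou5f1, Sox9, Cav3 and Murc, the lower clathrin genes, Pecam1, Egfl7, Eng, Col3a1, Pdgfrb and Tagln as markers, the iHPCs low in blood markers (under 200 TPM), the iHECs high in them and the pairs of libraries correlating above 0.95 were singled out after their values were seen. Row names matched RefSeq and GENCODE by symbol or by the newer cavin names. No protein sequence was used here.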

Additional observations from a re-analysis of the deposited data

How the results depend on the processing

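No paired analysis was possible because the groups compared are single samples, no result comes from a test, and the numbers in the titles only name cells. The alternatives were thresholds of 0 and 10 TPM, pseudocounts of 0.1 and 10, size factors, other filters, leaving out cells with under 4000 genes and, chosen after seeing the data, leaving out the 3 iHPCs low or the 3 iHECs high in blood markers, or counting near-identical libraries once. The mean difference over the 4 detected members between iHECs and day 14 was -5.33, -7.65 with a pseudocount of 0.1 and -3.15 with 10. With 0.1, Cav1 (-7.57) differed by more than Cav2 (-7.37), the opposite order to that with 1 or 10. Above 10 TPM, 4 day-14 iHPCs kept a member in place of 8, and above 0 TPM 11 day-21 iHPCs did in place of 4. By Pearson correlation, 4 of the 8 most alike genes were shared, and the cause was not tested. Of the differences of single members, 71 moved by less than the SD between cells and 5 by more, and of their shares of cells, 60 stayed inside the interval and 8 did not. No difference above 1 reversed. Detection in single cells misses transcripts at an unknown rate, so a value of 0 does not show absence.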
